A study of Mus musculus with 3 samples.

Results

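Endothelial junction and identity genes were followed through cardiac reprogramming in 10 genes of the 54532 in the deposited mouse tables: Cdh5, Pecam1, Cldn5, Esam, Sox7, Sox17, Sox18, Erg, Mmrn2 and Emcn. They were chosen by name, from measured values: several were known to be among the genes with the lowest level in GMTMS-iCMs relative to MICFs. That difference is therefore a description here, and the other comparisons share a library with it. All 10 names were found once in the table, and all 10 had over 10 counts in the higher library of every pair.

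RNA was sequenced from 3 libraries, 1 per condition, all made from Myh6-mCherry mice, in which the cardiomyocyte promoter of Myh6 drives a red reporter. MICFs are the cells that grew out of infarcted heart tissue digested 5 days after myocardial infarction (MI) surgery on mice 8 weeks old. They are labelled cardiac fibroblasts, but no source used here states a sort for a fibroblast marker. By staining, the study found nearly all of the isolated cells positive for Vimentin and only part of them positive for Pdgfrα. The MICFs library received no virus and was dissociated after the same culture time. GMTMS-iCMs received Gata4, Mef2c, Tbx5, Myocd and Sall4, GMTMM-iCMs received Gata4, Mef2c, Tbx5, Myocd and Mesp1, and both were kept for 4 weeks in iCM medium with doxycycline at 1 µg/ml and then sorted for mCherry. Since few cells were mCherry+, 5 sorted samples of each cocktail were mixed into 1 library. Whether MICFs received doxycycline is not stated. Virus, sorting and the mixing of samples thus separate both transduced libraries from MICFs, as do the Y-linked counts given below. None of these can be told apart from the cocktails.

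Some labels were at odds with the reads. Sall4, which only GMTMS should deliver, was at 1190 counts in GMTMS-iCMs, 1060 in the GMTMM-labelled library and 0 in MICFs, and Mesp1 was at 0 counts in all 3 libraries. That library is called by its label throughout, with this limit. Summed over 4 Y-linked genes, both transduced libraries held counts (1630 for GMTMS-iCMs and 1926 for the GMTMM-labelled library) and MICFs held 0. No label used here gives the sex of the animals, so the source animals may differ between MICFs and the transduced libraries. The library totals were 11861773, 10624118 and 11904484 counts, in the order MICFs, GMTMS-iCMs, GMTMM-labelled library. The floor used here is 3 counts, which in those libraries is 0.253, 0.282 and 0.252 CPM.

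Endothelial cells line blood vessels and hold their neighbours through adherens junctions, built on VE-cadherin, and tight junctions, which in these cells contain claudin-5. Their identity is kept by transcription factors of the ETS family, such as ERG, and of the SOXF group, which consists of SOX7, SOX17 and SOX18. In the heart they are among the most abundant non-muscle cells, and digestion of cardiac tissue releases them together with fibroblasts, macrophages and pericytes.

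Windows around annotated starts were searched for short motifs, among them one with the GGAA core that ETS factors bind. Whether ETS factors have a part in the differences of these genes was not tested. Such windows were found in RefSeq (GRCm38.p6) for 3 of the 10 genes. The 250 bases before 1 start of each are printed in the direction of the gene, with AGGAAG or its reverse complement CTTCCT in capitals. The Cldn5 stretch lies at chr16:18776597-18776846 on the plus strand, that of Emcn at chr3:137340828-137341077 on the plus strand, and that of Erg, from a start inside the gene, at chr16:95459349-95459598 on the minus strand.
Cldn5: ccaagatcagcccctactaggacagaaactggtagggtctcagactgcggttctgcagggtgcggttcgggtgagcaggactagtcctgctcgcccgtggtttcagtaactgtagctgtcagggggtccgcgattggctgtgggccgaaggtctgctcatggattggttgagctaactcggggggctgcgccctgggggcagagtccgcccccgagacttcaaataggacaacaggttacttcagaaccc
Emcn: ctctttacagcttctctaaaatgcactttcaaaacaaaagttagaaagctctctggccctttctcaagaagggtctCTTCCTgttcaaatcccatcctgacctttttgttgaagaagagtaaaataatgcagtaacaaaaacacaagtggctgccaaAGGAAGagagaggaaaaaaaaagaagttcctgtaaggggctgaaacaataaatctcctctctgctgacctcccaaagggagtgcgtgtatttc
Erg: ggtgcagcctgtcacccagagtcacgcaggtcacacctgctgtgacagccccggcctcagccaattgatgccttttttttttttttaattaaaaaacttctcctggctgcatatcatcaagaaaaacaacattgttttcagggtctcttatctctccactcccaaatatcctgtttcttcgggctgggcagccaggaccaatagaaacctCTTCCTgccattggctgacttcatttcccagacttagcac
Emcn held AGGAAG beginning 93 bases before its start and CTTCCT beginning 174 bases before it. Erg held CTTCCT 40 bases before the internal start, and this was the only one of its 3 windows with either. The other Erg windows, including that at the 5' end of the gene, and the Cldn5 window held neither. Of all 32851 RefSeq windows of 300 bases, 35.4% held AGGAAG on either strand, against 2 of the 5 windows of these 3 genes (3 of them of Erg). ACAAT, a SOX core motif, was in 2 of the 5 and in 31.0% of all windows, GATAA in 2 and 25.4%, CACCC in 3 and 57.5%, and TATAAA in 1 and 13.6%. The GC content was 58.3% in the Cldn5 window and 41.0% in that of Emcn, with a median of 52.7% over all windows.

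In MICFs the 10 genes were well expressed. Their FPKM, the deposited level per length of gene and per library, ran from 6.55 for Sox17 to 204 for Cdh5, and their sum was 550. Only 117 genes of the table had a higher FPKM than Cdh5 in that library. In GMTMS-iCMs the sum was 12.9 and 5 of the 10 genes were under 1 FPKM, while in the GMTMM-labelled library the sum was 416 and none was under 1. Together they took 0.251% of the MICFs counts, 0.00428% of the GMTMS-iCMs counts and 0.158% of those in the GMTMM-labelled library. Each of the 10 was highest in MICFs and lowest in GMTMS-iCMs.

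**Figure D1:**
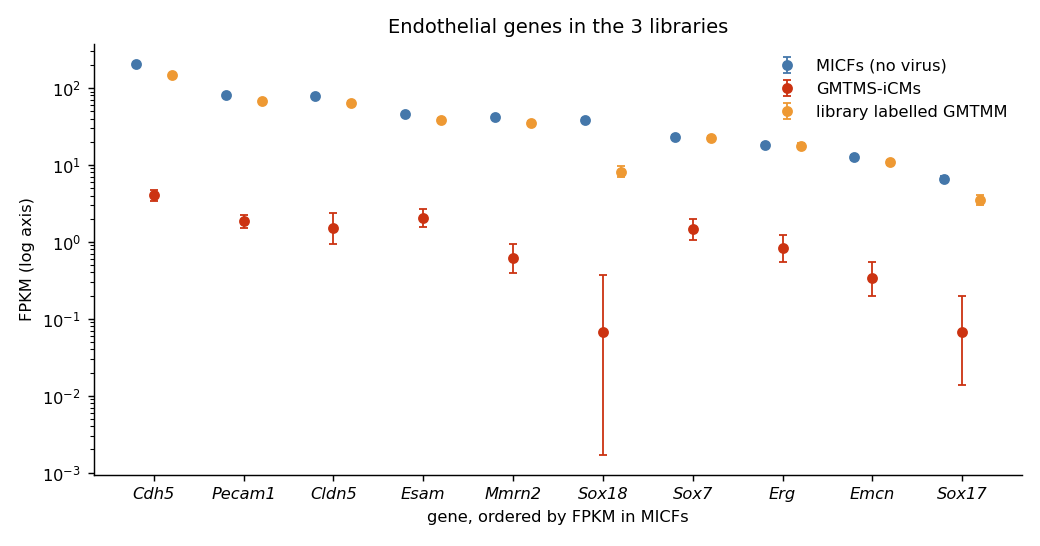
FPKM of the 10 endothelial genes (log axis) in the MICFs, GMTMS-iCMs and labelled GMTMM libraries, with exact 95% counting intervals and 1 library per point. Every GMTMS-iCMs point lies at 4.02 FPKM or lower, and the other libraries lie at 3.50 FPKM or higher.

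The junction genes came first in abundance. Cdh5 (ENSMUSG00000031871, GRCm38 chr8:104101625-104144511), which encodes VE-cadherin, had 12354 counts (204 FPKM) in MICFs, 157 counts (4.02 FPKM) in GMTMS-iCMs and 7239 counts (147 FPKM) in the GMTMM-labelled library. Its FPKM in GMTMS-iCMs was 1.97% of that in MICFs (1.67 to 2.31, exact Clopper-Pearson 95% interval on the counts, as for all intervals here, which cover counting error only), or 50.8-fold lower. Its FPKM in the GMTMM-labelled library was 72.2% (70.1 to 74.3). Cdh5 was the most abundant of the 10 in each library, although in GMTMS-iCMs 7558 other genes were above it.

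Pecam1 (ENSMUSG00000020717, chr11:106654217-106750628), which encodes the adhesion molecule CD31 at endothelial contacts, had 7237 counts (80.8 FPKM) in MICFs, 107 (1.85 FPKM) in GMTMS-iCMs and 4932 (67.8 FPKM) in the GMTMM-labelled library. Cldn5 (ENSMUSG00000041378, chr16:18776847-18778262), a single-exon gene for claudin-5, had 1595 counts (78.3 FPKM), 20 (1.52 FPKM) and 1058 (64.0 FPKM), in the same order. Esam (ENSMUSG00000001946, chr9:37528078-37538319), which encodes an immunoglobulin-like adhesion molecule of tight junctions, had 1884 counts (45.7 FPKM), 55 (2.07 FPKM) and 1280 (38.2 FPKM). All 3 followed the order of Cdh5, with MICFs highest and GMTMS-iCMs lowest. The FPKM in GMTMS-iCMs was 2.29% of that in MICFs for Pecam1 (1.88 to 2.77), 1.94% for Cldn5 (1.18 to 3.01) and 4.52% for Esam (3.39 to 5.91). The Esam interval lies above those of the other 3 junction genes. Relative to MICFs, the GMTMM-labelled library held these genes at 84.0% (81.0 to 87.1), 81.7% (75.5 to 88.4) and 83.7% (77.9 to 89.9), intervals that overlap each other and exclude both 100% and the value of Cdh5.

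The SOXF genes separated from each other. Sox7 (ENSMUSG00000063060, chr14:63943673-63950732) had 1110 counts (23.4 FPKM) in MICFs, 45 (1.47 FPKM) in GMTMS-iCMs and 865 (22.4 FPKM) in the GMTMM-labelled library. Sox17 (ENSMUSG00000025902, chr1:4490931-4497354), known for its part in arterial identity, had 450 counts (6.55 FPKM), 3 (0.0677 FPKM) and 195 (3.50 FPKM). Sox18 (ENSMUSG00000046470, chr2:181669836-181671640), which acts in vessel and lymphatic development, had 901 counts (38.7 FPKM), 1 (0.0665 FPKM) and 155 (8.19 FPKM). In MICFs the most abundant SOXF gene was Sox18, in both other libraries it was Sox7.

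In GMTMS-iCMs Sox17 and Sox18 were at or under the floor of 3 counts. Their FPKM there was 1.03% (0.212 to 3.04) and 0.172% (0.00435 to 0.960) of that in MICFs, so counting error alone spans a wide range of folds for both. Sox7 kept 6.28% (4.55 to 8.46), the highest share of the 10 genes. In the GMTMM-labelled library the share was 96.0% for Sox7 (87.7 to 105), 53.4% for Sox17 (44.9 to 63.3) and 21.2% for Sox18 (17.8 to 25.2), and these 3 intervals do not overlap. Sox17 and Sox18 had the lowest shares of the 10 genes in both transduced libraries. In GMTMS-iCMs that order is not resolved, since the Sox17 interval overlaps those of its neighbours Sox18 and Mmrn2. Of the exon bases of Sox17, 16.8% lie in exons of Gm37587 on the other strand, a gene with 0 counts in all 3 libraries, and no other gene of the 10 shares exon bases.

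Erg (ENSMUSG00000040732, chr16:95359169-95586593), an ETS factor that drives many endothelial genes including Cdh5, had 905 counts (18.1 FPKM) in MICFs, 27 (0.839 FPKM) in GMTMS-iCMs and 719 (17.8 FPKM) in the GMTMM-labelled library. Its FPKM relative to MICFs was 4.62% (3.03 to 6.77) in GMTMS-iCMs and 97.9% (88.6 to 108) in the GMTMM-labelled library. Erg and Sox7 were thus the genes whose interval in the GMTMM-labelled library holds 100%, and the other 8 intervals lie below it.

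The surface and matrix genes were Mmrn2 and Emcn. Mmrn2 (ENSMUSG00000041445, chr14:34375465-34404287), which encodes an endothelial extracellular matrix glycoprotein that binds CD93 and CLEC14A, had 2403 counts (42.0 FPKM) in MICFs, 23 (0.623 FPKM) in GMTMS-iCMs and 1644 (35.4 FPKM) in the GMTMM-labelled library. Emcn (ENSMUSG00000054690, chr3:137341067-137432185), which encodes the sialomucin endomucin of capillary and venous endothelium, had 975 counts (12.5 FPKM), 17 (0.338 FPKM) and 685 (10.8 FPKM). In GMTMS-iCMs they kept 1.48% (0.938 to 2.23) and 2.70% (1.57 to 4.35) of the MICFs level, and in the GMTMM-labelled library 84.3% (79.1 to 89.8) and 86.5% (78.4 to 95.5). Both pairs of intervals overlap.

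**Figure D2:**
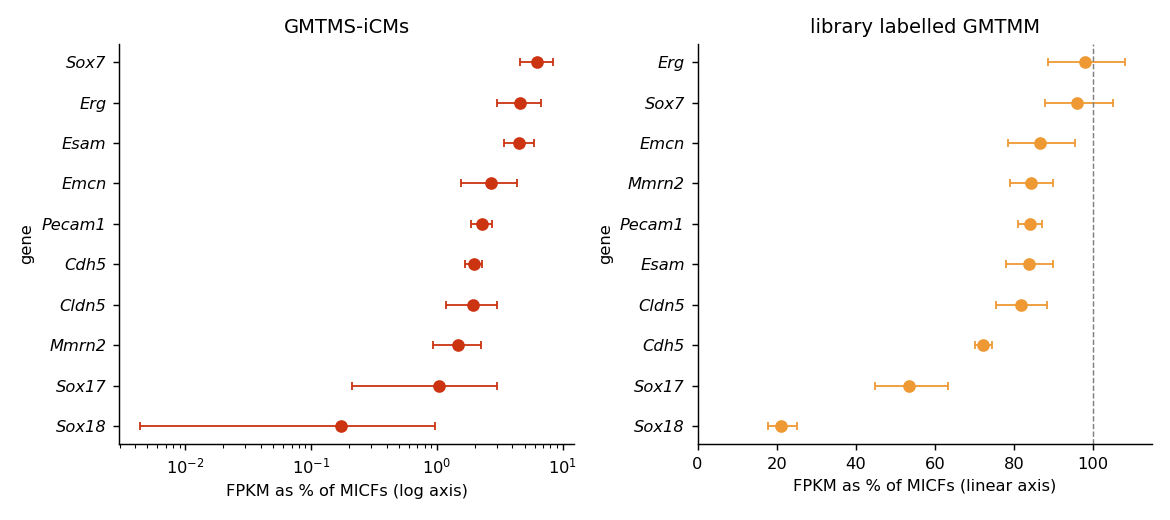
FPKM of each gene as a percentage of its FPKM in MICFs, with exact 95% counting intervals, in GMTMS-iCMs (left, log axis) and in the GMTMM-labelled library (right, linear axis, dashed line at 100%). The genes run from 0.172% to 6.28% on the left, and Sox18 and Sox17 lie lowest on both sides. On the left the intervals of neighbouring genes overlap throughout.

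Set side by side, the 10 genes kept a median of 2.13% of their MICFs level in GMTMS-iCMs and 83.8% in the GMTMM-labelled library. Ordered by that share, neighbouring genes had overlapping intervals throughout in GMTMS-iCMs. In the GMTMM-labelled library, Sox18, Sox17, Cdh5 and then Cldn5 followed each other without overlap, while all neighbours above Cldn5 overlapped. Divided by the share that Cdh5 kept, the share of Sox18 was 0.294 and that of Sox17 was 0.740 in the GMTMM-labelled library, whereas the other 7 genes lay between 1.13 and 1.36. In GMTMS-iCMs the same ratio was 0.0873 for Sox18, 0.525 for Sox17 and 3.19 for Sox7.

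On the study's scale, log2 (quantile-normalized FPKM + 1), a gene was called lower or higher when a difference passed 1, with no test since each condition has 1 library. In GMTMS-iCMs against MICFs 10 of the 10 genes were lower, where 9.05% of 15020 genes with over 10 counts were lower and 9.29% higher. Because this contrast chose the genes, nothing is read from that count. The differences ran from -5.81 for Cdh5 to -2.83 for Sox17, with a median of -4.61 against a median of -0.08 over all genes, and 9 of the 10 ranked among the 100 lowest. Sox17, at rank 174, had a 96.8-fold lower FPKM (32.9 to 471), but its low level compresses the difference on a scale with 1 added.

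In the GMTMM-labelled library against MICFs, 2 of the 10 genes were lower by over 1, where 3.61% of 15167 genes were lower and 6.55% higher. These were Sox18 at -2.50 and Cdh5 at -1.15. The call of Cdh5 was lost without quantile normalization, where its difference was -0.47, and also with the scalings of edgeR (-0.50) and DESeq2 (-0.47). The DESeq2 value is not a separate check, since the deposited FPKM already carry DESeq2 size factors. With library totals the call of Cdh5 was lost as well (-0.78), and Sox17 passed 1 in its place (-1.16). The call of Sox18 held at a difference of 1, with values from -2.63 to -2.11 over all alternatives. All 10 differences were below 0, with a median of -0.75 against -0.09 over all genes, but without quantile normalization the median was -0.25. The all-gene median is not matched for level, and the share of all genes below 0 was not computed. The abundant catenin genes Ctnnb1 and Ctnna1, at 93.6% and 118% of MICFs by FPKM, were at -0.65 and -0.32 on this scale. In GMTMS-iCMs against the GMTMM-labelled library, 10 of the 10 genes were lower, where 9.6% of 14713 genes were lower and 6.4% higher. The genes were chosen for low values in GMTMS-iCMs, which this contrast also uses, so nothing is read from that count either. The differences there ran from -4.66 for Cdh5 to -2.02 for Sox17, with a median of -3.36 against 0.06. By FPKM the genes in GMTMS-iCMs stood at 0.811% (Sox18) to 6.54% (Sox7) of the GMTMM-labelled library, with a median of 2.73%. When libraries were scaled by their totals instead, the median over all genes moved to -0.46, -0.27 and -0.13 in these 3 comparisons.

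Markers of other cell types differed between the libraries as well. In bulk RNA, fewer cells of a type and less RNA per cell cannot be told apart. Of 8 fibroblast markers, 8 were lower by over 1 in GMTMS-iCMs against MICFs, with a summed FPKM of 1446, 219 and 2777 in MICFs, GMTMS-iCMs and GMTMM-labelled library. Their shares of the MICFs level in GMTMS-iCMs ran from 7.49% for Tcf21 to 23.3% for Lum, both named after their values were seen. In the GMTMM-labelled library the same 8 markers stood at 114% to 292% of MICFs by FPKM, while all 10 endothelial genes lay under 100%. After quantile normalization the differences of the fibroblast markers there ran from -0.17 to 1.06.

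The 10 macrophage markers were counted in every library, with a summed FPKM of 9749, 18995 and 8935 in that order. In GMTMS-iCMs 0 of them was lower and 1 higher by over 1, with a median difference of 0.27, and their median FPKM share was 205%. Of the same markers 3 were lower in the GMTMM-labelled library, with a median difference of -0.67 and a median share of 89.7%. Lyz2, which encodes a lysozyme of macrophages and granulocytes, had 6135 FPKM in MICFs, where Cdh5 had 204. In the same order the 8 cardiomyocyte markers summed to 1.29, 1318 and 489 FPKM, and Myh6, Actn2, Ryr2 and Myl7 were at 0 counts in MICFs. Both cardiomyocyte markers and the 10 endothelial genes were counted in the GMTMM-labelled library. Of 9 pericyte and smooth muscle markers, 4 were lower and 1 higher by over 1 in GMTMS-iCMs, and 0 lower and 3 higher in the GMTMM-labelled library. Named after their values were seen, the lower ones were Rgs5, Kcnj8, Abcc9 and Pdgfrb, of which Kcnj8 kept 6.31%, and the higher one was Myh11 at 411%. Over the whole list the median share in GMTMS-iCMs was 155%, with a median difference of -0.03. In the GMTMM-labelled library the higher ones, also named after their values were seen, were Rgs5, Myh11 and Des. Of the platelet and of the mesothelial markers, 2 each had over 10 counts in MICFs or GMTMS-iCMs, with 0 lower and 1 higher in either list. The part of these cell types in the differences of the 10 genes was not tested.

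**Figure D3:**
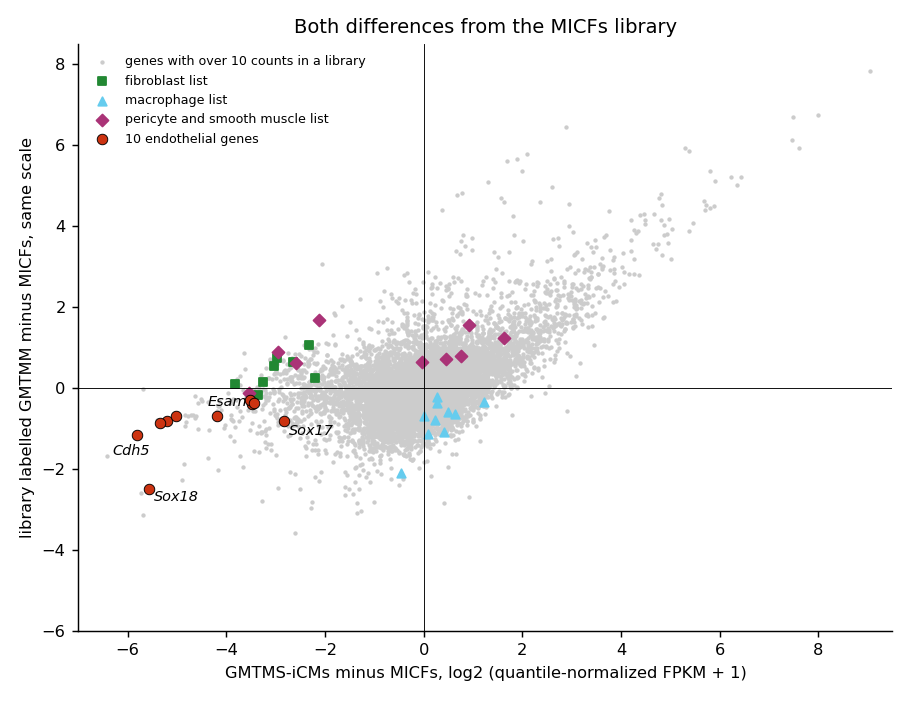
Difference from MICFs on the log2 (quantile-normalized FPKM + 1) scale in GMTMS-iCMs (horizontal) and in the GMTMM-labelled library (vertical) for genes with over 10 counts in a library, with 4 sets in colour. Both axes share the MICFs library, so the axes are not independent. The 10 endothelial genes lie between -5.81 and -2.83 horizontally and below 0 vertically, with Sox18 lowest at -2.50, and the fibroblast markers lie between -3.82 and -2.20 horizontally and from -0.17 to 1.06 vertically.

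Other endothelial genes were read from lists that do not include the 10 but were also chosen with earlier results of these data known. Of 16 genes of endothelial surfaces and junctions, 14 were lower by over 1 in GMTMS-iCMs against MICFs (median -3.48), and 4 were lower in the GMTMM-labelled library (median -0.64). Over all genes with over 10 counts, 9.05% and 3.61% were lower. The most abundant were Cd93, a receptor for MMRN2, the adhesion molecule Mcam, the TGF-beta co-receptor Eng and Icam2. Mcam stood at 130 FPKM in MICFs, 6.04 FPKM in GMTMS-iCMs and 120 FPKM in the GMTMM-labelled library, which is 4.65% and 91.9% of the MICFs level. Cd93 had 161, 209 and 124 FPKM, so it was higher in GMTMS-iCMs than in MICFs by FPKM, but its difference after quantile normalization was -0.30. Cd93 and Jam2, the latter named after its value was seen, were the 2 genes not lower by over 1 in GMTMS-iCMs. CD93 is also made by myeloid cells, whose markers are given above, and their part in the values of Cd93 or of other list genes was not tested. The 4 genes lower in the GMTMM-labelled library, named after their values were seen, were Plvap, Clec14a, Egfl7 and Vwf. They kept 35.0%, 28.8%, 32.4% and 24.4% of the MICFs level by FPKM. After quantile normalization their differences were -1.73, -1.52, -1.88 and -1.65, between those of Cdh5 and Sox18.

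Other transcription factors expressed in endothelium, many of them not specific to it, were less uniform. Of 14 such genes 13 had over 10 counts, 5 were lower by over 1 in GMTMS-iCMs and none was higher, with a median of -0.78. Named after their values were seen, the 5 were Lyl1, Gata2, Hhex, Foxc1 and Bcl6b. Their shares of the MICFs level in GMTMS-iCMs ran from 1.38% for Bcl6b to 20.5% for Lyl1. In the GMTMM-labelled library Bcl6b kept 72.7% and Lyl1 12.2%. The most abundant, Klf2, Ets2, Klf4 and Ets1, were at 224%, 242%, 122% and 84.0% of the MICFs FPKM in GMTMS-iCMs. After quantile normalization Klf2, a gene induced by blood flow, and the ETS factor Ets2 were also above MICFs, at 0.59 and 0.70, but Klf4 turned to -0.14 and Ets1 was at -0.33. In the GMTMM-labelled library 2 of the 13 were lower and 3 higher, with a median of -0.21. Etv2, an early ETS factor of blood and vessel lineages, had 0 counts in MICFs and GMTMS-iCMs and 2 in the GMTMM-labelled library.

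General junction partners, which many cell types use, were read from a list of 14. Of these, 6 were lower and 1 higher by over 1 in GMTMS-iCMs, with a median of -0.74 and a median FPKM share of 47.8%, and 0 of 14 passed 1 in either direction in the GMTMM-labelled library. Ctnnb1 and Ctnna1, the catenins that link cadherins to actin, were at 97.4% and 102% of the MICFs FPKM in GMTMS-iCMs, but their differences were -0.65 and -0.59 after quantile normalization. Jup was at 48.1% and Tjp1, the tight junction scaffold ZO-1, at 14.2%. Of 8 other claudins 3 had over 10 counts in MICFs or GMTMS-iCMs, and the most abundant of them, Cldn12, had 3.07 FPKM in MICFs against 78.3 for Cldn5.

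Of the genes of vessel types, arterial genes and VEGF and Tie receptors were mostly low in GMTMS-iCMs, and the other lists were mixed. Of 8 arterial genes, 7 were lower by over 1 in GMTMS-iCMs, with a median of -3.16, and in the GMTMM-labelled library 1 was lower and 1 higher, with a median of -0.29. Dll4, an arterial Notch ligand, stood at 47.8 FPKM in MICFs, 1.26 FPKM in GMTMS-iCMs and 41.0 FPKM in the GMTMM-labelled library. The 2 that passed 1 in the GMTMM-labelled library, named after their values were seen, were the gap junction gene Gja5 at -2.47 and the Notch target Hey1 at 1.27. All 4 VEGF and Tie receptors were lower in GMTMS-iCMs, and Tie1 kept 2.37% but Kdr 22.1%. In the GMTMM-labelled library only Kdr was lower by over 1, at -1.09, while Flt1 stood at 160% of its MICFs FPKM. Of the venous genes 3 had enough counts, 2 lower and 1 higher, and of the capillary genes 5, with 3 lower and 2 higher. Among 5 lymphatic genes, 3 were lower and 1 higher, and of 4 endocardial genes 2 had enough counts and 1 was lower. Over these 8 endothelial lists together, 39 of 56 genes with over 10 counts were lower and 4 higher in GMTMS-iCMs. In the GMTMM-labelled library 10 of 57 were lower and 6 higher. Over all genes with over 10 counts, 9.05% were lower and 9.29% higher in GMTMS-iCMs, and 3.61% and 6.55% in the GMTMM-labelled library. The lists were chosen with earlier results of these data known, so their counts are a description.

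**Figure D4:**
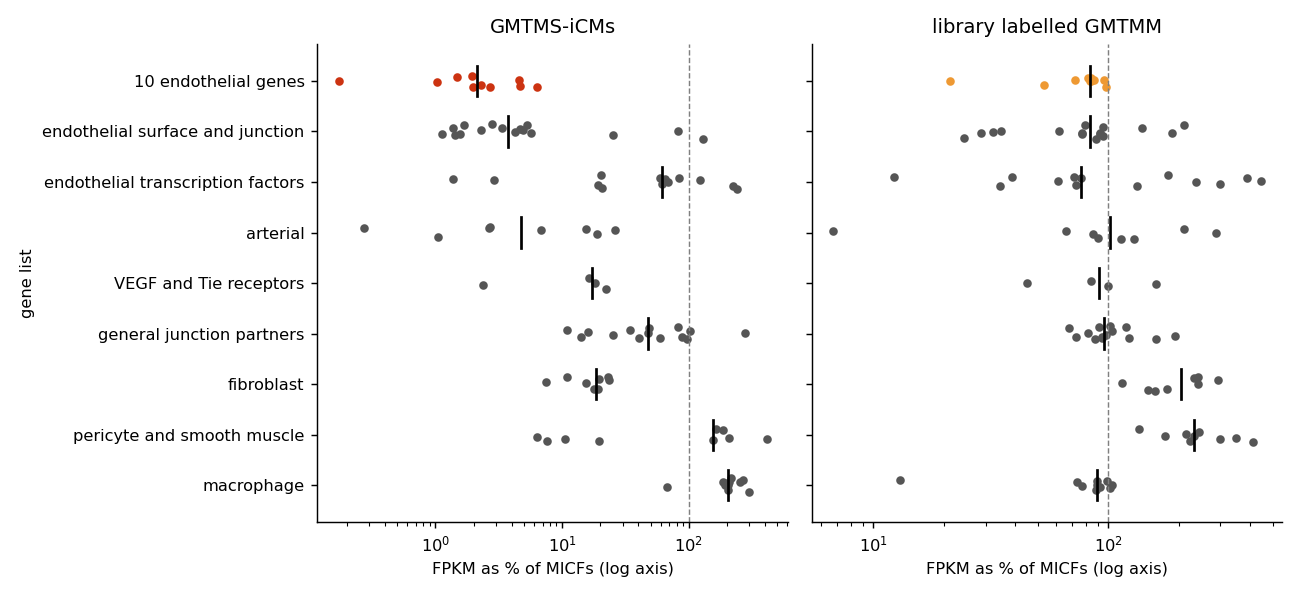
FPKM as a percentage of MICFs (log axis, dashed line at 100%) for each gene of the 10 endothelial genes and of 8 other lists, in GMTMS-iCMs (left) and in the GMTMM-labelled library (right), with the median as a bar and genes at 0 counts in MICFs left out. On the left the median is 2.13% for the 10 genes, which were chosen for low values there, 18.5% for fibroblast and 205% for macrophage markers.

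The genes whose differences were most like the median of the 10 were ranked among 11547 genes with at least 50 counts in MICFs, by the distance between their pair of differences from MICFs and the pair -4.61 and -0.75. The 10 nearest that are not among the 10 themselves were Notch4, Mcam, Trp53i11, Dll4, Tie1, Bcl6b, Fscn1, Prelp, Gja4 and Mest, at distances from 0.04 to 0.39 log2 units. Of these, 5 are on the endothelial lists above, but the ranking uses the difference that chose the 10 genes. The share of list genes among all those ranked was not computed, so nothing is read from that count. The 10 endothelial genes lay farther from their own median, from 0.43 for Esam to 1.99 for Sox18. The nearest were taken as the closest of 11547 genes, so nothing is read from that order either. Likeness was measured over 3 libraries only, 1 of which enters both differences.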

How the data were processed

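The series holds RNA-seq of 3 mouse libraries, with 1 library per condition. The authors deposited counts of reads per gene, without normalization, and FPKM per gene, beside the gene length in bases. The submitters' processing notes name HISAT2 2.0.5 and mm9, but the coordinates of the 10 genes are those of GRCm38, as checked against GENCODE M21. The counting tool is not given in the sources used here. The deposited FPKM had been scaled by DESeq2 size factors (1.26, 0.811 and 1.02, with MICFs first and GMTMM last). One column carries an abbreviation that no label uses, and it was matched to MICFs because the others name the cocktails.

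FPKM were quantile-normalized over the 3 libraries and taken as log2 (FPKM + 1). A gene entered a comparison when the higher library of the pair had over 10 counts, and a difference over 1 was counted. Shares of the MICFs level are ratios of deposited FPKM with exact Clopper-Pearson 95% intervals. With 1 library per condition there is no test across replicates and no p-value. The genes and lists were chosen with earlier results of these data known. The text names all 10 genes, of each other list at most 4 genes with the highest FPKM in any library and defining markers at 0 counts, the delivered factors that differ and the 10 nearest genes, and says where other genes were named after their values were seen. Ccl21a was not matched to a single entry and is not reported.

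Shared sequence was taken as exon bases in exons of another gene. As alternatives, quantile normalization was run after the log2 step or left out, the pseudocount was 0.1, genes had to reach an FPKM of 1 in some library, counts were scaled by library totals, DESeq2 size factors or edgeR's TMM (log2 CPM, prior count 2), the filter on counts was left out, and the difference had to pass 2. The steps were tested on simulated data. Tools were DESeq2 1.42.0 and edgeR 4.0.16 in R 4.3.3, and SciPy 1.17.1, pandas 2.3.3, numpy 2.4.6 and matplotlib 3.10.9 in Python 3.11.15.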

Additional observations from a re-analysis of the deposited data

How the results depend on the processing

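All 10 differences stayed below 0 in each of the 3 comparisons under every alternative run. The count of genes lower by over 1 stayed at 10 in both comparisons of GMTMS-iCMs. The genes were chosen for low values in that library, so nothing is read from this. Leaving out the filter could not change any count, because all 10 genes passed it. Against MICFs, the count in the GMTMM-labelled library went from 2 to 1 without quantile normalization, with TMM log2 CPM, with DESeq2 size factors and at a difference over 2. With library totals it stayed at 2, but Sox17 (-1.16) took the place of Cdh5 (-0.78). Its median went from -0.75 to -0.25 without quantile normalization, -0.28 with TMM, -0.25 with DESeq2 size factors and -0.56 with library totals. The median of GMTMS-iCMs against MICFs went from -4.61 to -5.48 with a pseudocount of 0.1, -5.59 with TMM and -5.53 with DESeq2 size factors, and that against the GMTMM-labelled library from -3.36 to -4.69, -5.18 and -5.19. The pseudocount of 1 compresses differences of low genes by its construction. With DESeq2 size factors, which the deposited FPKM already carry, it was added to counts and not to FPKM. The cause of the other shifts was not tested. Of 210 single-gene values, 119 stayed within the counting interval and 91 left it. No paired analysis was possible because 1 library stands for each condition, and no library could be left out. Depth limits Sox17 and Sox18 in GMTMS-iCMs, with 3 counts and 1 count.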
